A study of Mus musculus with 15 samples.

Results

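Transcripts of 57 genes for myosins and smooth muscle contractile proteins were measured in mouse lymph node lymphatic endothelial cells (LECs), out of 45706 genes in the deposited table. The members were chosen by symbol, as all Myo, Myh and Myl genes together with Acta2, Actg2, Tagln, Cnn1, Tpm1, Tpm2, Mylk and Cald1, with the condition that at least 1 library held a count. Of 58 genes that matched, Myl7 was listed at 0 in every library and was left out. The members comprised 25 unconventional myosins, 8 smooth muscle contractile genes, 3 non-muscle class II heavy chains, the smooth muscle heavy chain Myh11, 10 light chains and 10 sarcomeric heavy chains. A filter on low counts kept 48 of them. The 9 below it were Myo15, Myo15b, Myo16, Myl1, Myl2, Myl3, Myh3, Myh4 and Myh15, whose values lay between 0 and 0.343 CPM in all 15 libraries (CPM, counts per library scaled with TMM factors so that libraries can be compared).

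The cells were LECs, sorted as Pdpn-positive, CD31-positive and CD45-negative, from lymph nodes of female C57Bl/6 mice, pooled from several sites and kept in culture. All groups were kept for 72 h in the same serum-containing medium, without added VEGF-C (unstimulated), with 10 ng/mL or with 100 ng/mL of recombinant murine VEGF-C, the growth factor that acts on LECs through the receptor Flt4. Each group held 5 libraries, named A to E, with total estimated counts of 27784906 to 38590841 per library. Whether the 5 libraries of a group are separate cultures is not stated in the labels, and the p-values reflect the spread between these libraries alone, part of which may be technical. Library B at 100 ng/mL was set apart from the rest of its group, at 38.8 on the first principal component (64.8% of the variance) against 69.8 to 78.5 for the other 4 libraries. The lymphatic endothelial marker genes summed to 7123 to 7782 CPM in unstimulated cells and included Prox1 (mean 242.5 CPM) and Pdpn (101.9 CPM). Of these 10 markers, Ccl21a was at 0 in the unstimulated and 10 ng/mL libraries.

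Myosins are motors that move along actin filaments. Class II myosins are built of 2 heavy chains with regulatory and essential light chains, assemble into bipolar filaments and pull actin filaments together. In smooth muscle and non-muscle cells, phosphorylation of the regulatory light chain by kinases such as Mylk switches this contraction on. Smooth muscle cells add their own actins (Acta2, Actg2), tropomyosins and the actin-binding proteins transgelin, calponin and caldesmon, and many of these genes carry a CArG box, the sequence bound by serum response factor. The unconventional myosins do not form such filaments, and instead carry vesicles and organelles, tether membranes to actin, or act at the tips of filopodia and microvilli. In lymphatic endothelium, actomyosin contraction acts on cell junctions, while contractile smooth muscle genes are best known from the mural cells around collecting vessels.

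At 100 ng/mL against unstimulated cells, 37 of the 48 tested members changed, with 14 higher and 23 lower (edgeR quasi-likelihood test, Benjamini-Hochberg adjusted over 17650 genes). Among all genes tested, 42.9% were called, with 21.4% higher and 21.5% lower, so calls in either direction were common in this comparison. The classes moved in different directions. Of 22 unconventional myosins, 13 rose and 2 fell, with a median log2 fold change of 0.44. Of 8 contractile genes none rose and 7 fell, with a median of -2.20, beside a median of 0.0078 over all genes tested. Light chains fell in 6 of 7 cases and sarcomeric heavy chains in 6 of 7. Values of the unstimulated and 100 ng/mL libraries did not overlap for 25 of the 48 members, beside 27.2% of all genes tested. At 100 against 10 ng/mL, 36 of the 48 changed, 13 higher and 23 lower, beside 40.5% of all genes (19.9% higher and 20.6% lower), and 26 did not overlap, beside 25.6%. This comparison shares its 100 ng/mL libraries with the first one.

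**Figure D1:**
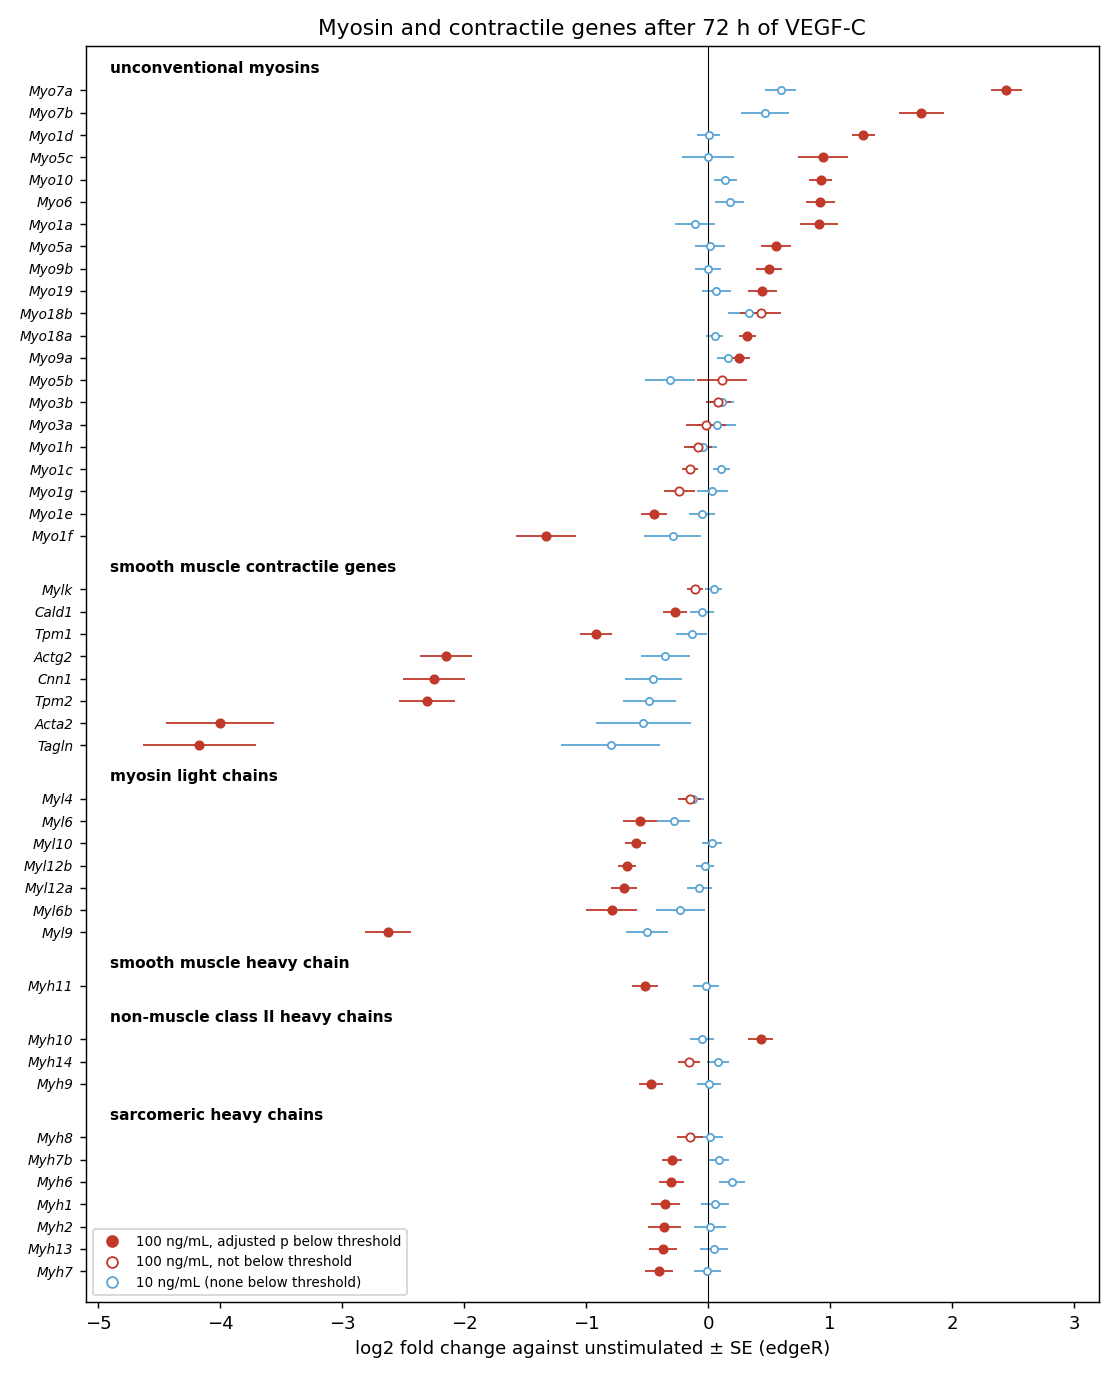
Log2 fold changes against unstimulated cells with their standard error (horizontal axis) for 47 of the 48 tested members, grouped by class, at 100 ng/mL (red, filled where the adjusted p is below 0.05) and 10 ng/mL (blue). Contractile genes lie at or below -0.11 at 100 ng/mL, while 12 unconventional myosins lie to the right of 0 with a filled point.

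The genes with the largest falls were those of smooth muscle actin and its binding proteins. Tagln (ENSMUSG00000032085, GRCm38 chr9:45929619-45936058) encodes transgelin, an actin-bundling protein used as an early smooth muscle marker. It measured 382.6, 305.1, 349.5, 608.3 and 355.5 CPM in unstimulated libraries A to E, 213.4, 235.7, 253.7, 191.1 and 256.8 CPM at 10 ng/mL, and 15.04, 61.4, 11.04, 9.89 and 13.9 CPM at 100 ng/mL. All 5 libraries at 100 ng/mL lay far below the others, and library B was the highest of them. The log2 fold change was -4.17 ± 0.47 (SE, adjusted p = 5.11e-06 in edgeR), an 18.0-fold fall, and it measured -5.003 without 100 ng/mL library B. In the annotation Tagln overlaps exons of Pcsk7 on the opposite strand, and the sources used here do not state whether counting used the strand.

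Acta2 (ENSMUSG00000035783, chr19:34241090-34255590), the α-actin of smooth muscle, measured 323.9, 208.8, 307, 383.5 and 276.1 CPM in unstimulated cells and 173.6, 248.5, 176.4, 169.8 and 268 CPM at 10 ng/mL. At 100 ng/mL it measured 7.85, 47.9, 12.7, 8.03 and 17.1 CPM, again with library B highest and no overlap with either other group. It fell 16.0-fold (log2 -4.00 ± 0.44, adjusted p = 4.85e-06 in edgeR), and by 4.71 on the log2 scale without library B. In these bulk libraries, fewer cells of a contractile type and less RNA per cell cannot be told apart. Actg2, the γ-actin of enteric smooth muscle, ran lower throughout, at 19.5, 12.8, 21.2, 16.3 and 16.4 CPM in unstimulated cells, 11.6, 18, 11.1, 10.36 and 16.5 CPM at 10 ng/mL and 3.58, 5.81, 2.69, 3.28 and 4.04 CPM at 100 ng/mL. It fell 4.44-fold (log2 -2.15 ± 0.22, adjusted p = 1.91e-06 in edgeR), without overlap between the unstimulated and 100 ng/mL libraries.

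Calponin and the tropomyosins bind along the actin filament and gate its access to myosin. Cnn1, which encodes smooth muscle calponin, measured 9.92, 11.97, 14.7, 23.9 and 16.8 CPM in unstimulated cells, 9.53, 13.6, 12.2, 11.4 and 9.84 CPM at 10 ng/mL, and 2.74, 5.44, 2.26, 2.99 and 2.88 CPM at 100 ng/mL. Its fall was 4.74-fold (log2 -2.24 ± 0.26, adjusted p = 6.17e-06 in edgeR), and the highest 100 ng/mL library, B, lay below the lowest unstimulated one. Tpm2 gave 93.2, 68.5, 95.4, 89.9 and 92.9 CPM in unstimulated cells, 56.8, 75.2, 51.5, 63.8 and 67.8 CPM at 10 ng/mL and 13.5, 32.1, 11.7, 17.2 and 14.7 CPM at 100 ng/mL. It fell 4.94-fold (log2 -2.30 ± 0.23, adjusted p = 1.65e-06 in edgeR). Tpm1 was far more abundant and changed less. Its values were 844.6, 872, 845.4, 1099 and 1097 CPM in unstimulated cells, 845.7, 825.5, 919, 916.3 and 829.7 CPM at 10 ng/mL, and 531.4, 678.5, 410.6, 469.6 and 426.3 CPM at 100 ng/mL. The log2 fold change was -0.92 ± 0.13 (adjusted p = 4.05e-05 in edgeR).

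The other 2 contractile genes showed small differences with overlapping libraries. Cald1, which encodes caldesmon, fell from 928.5 ± 123 CPM (mean ± SD, n = 5) to 769.2 ± 95.0 CPM with the high dose, a log2 fold change of -0.27 ± 0.10 with an adjusted p of 0.036 in edgeR. That call was lost when any 1 of unstimulated C, D or E or 100 ng/mL A, C, D or E was left out, and when only the 10 libraries compared were fitted (adjusted p up to 0.0957). Mylk, the kinase that phosphorylates the regulatory light chain, measured 110.6 ± 8.72 CPM in unstimulated, 114.1 ± 7.14 CPM with 10 ng/mL and 102.6 ± 8.26 CPM with 100 ng/mL and did not pass against unstimulated cells (log2 -0.11 ± 0.07, adjusted p = 0.217 in edgeR). It passed with surrogate variables in the model (adjusted p = 0.00892).

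On the deposited RPKM scale, which divides by gene length and so allows levels of different genes to be compared, the order of the contractile genes changed with the dose. In unstimulated cells Tagln was highest at 141.3 ± 40.6 RPKM (mean ± SD, n = 5), followed by Acta2 at 90.3 ± 18.9, Tpm1 at 79.0 ± 11.4 and Cald1 at 41.5 ± 5.84 RPKM. Tpm2 followed at 16.3 ± 2.16, and the lowest were Actg2 at 5.91 ± 1.13, Mylk at 5.85 ± 0.372 and Cnn1 at 3.50 ± 1.19 RPKM. Acta2 and Tpm1, and Actg2 and Mylk, did not differ beyond their spread in that order. At 100 ng/mL Tpm1 (40.6 RPKM) and Cald1 (33.5 RPKM) were the highest, and Tagln and Acta2 averaged 7.66 and 5.50 RPKM, beside Mylk at 5.28 RPKM. Without library B, Tagln and Acta2 averaged 4.29 ± 0.832 and 3.36 ± 1.33 RPKM (SD, n = 4), both below Mylk at 5.46 ± 0.103 RPKM.

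**Figure D2:**
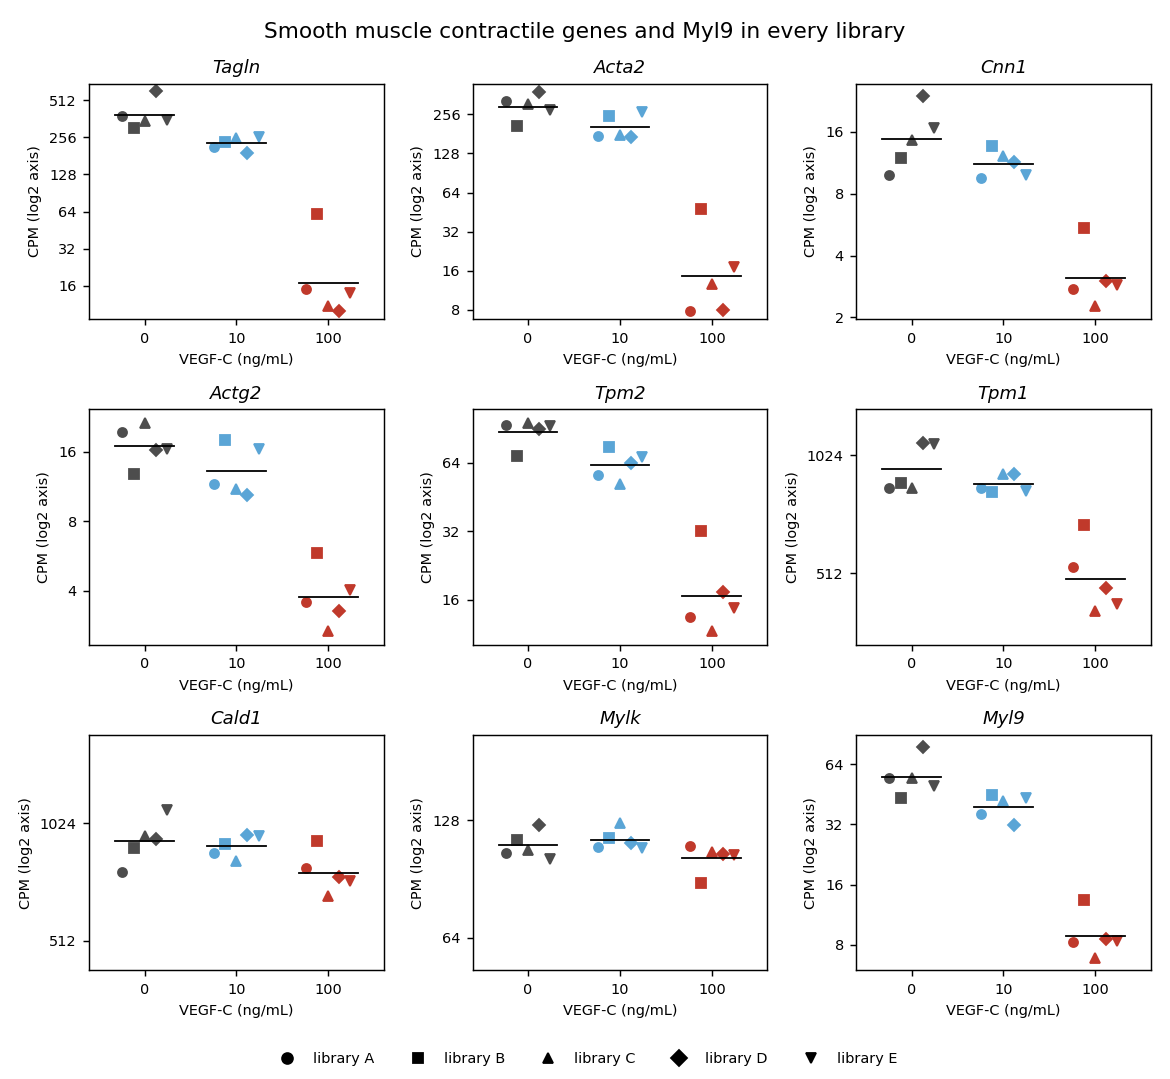
CPM of the 8 contractile genes and Myl9 in every library (vertical log2 axes, 1 symbol per library letter, black lines at the geometric mean) against VEGF-C dose. The 100 ng/mL libraries lie below all others except for Cald1 and Mylk, and library B is the highest 100 ng/mL library for each of the other 7 genes.

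Promoter sequences were searched for the CArG box, because the members that fell include textbook targets of serum response factor. The search covered both strands of 250 bases before to 50 bases after each RefSeq start (GRCm38.p6), for CC, then 6 bases of A or T, then GG, and in a looser form with 1 mismatch in the core of 6. Of 57 members, 49 had a promoter sequence, and Tagln, Actg2 and Myh11 were among those without one. Among 20 of these that fell at 100 ng/mL, 4 held the strict motif and 7 the strict or looser motif, and among 11 that rose none held the strict and 1 (Myo10) the looser motif. None of the 9 tested without a call held either, and 2 of the 9 below the filter on low counts (Myl3 and Myh4) held the strict motif, a share of 22.2% beside 4 of 20 among those that fell. Over all 27025 genes with a promoter, 1.81% held the strict and 11.29% the strict or looser motif. The windows below, given 5′ to 3′ on the gene's strand with the matches in capitals, show the 2 smooth muscle genes with a pair of matches and the unconventional myosin with a strict match. They come from chr19:34255384-34255483 (minus strand), chr2:156775284-156775383 (plus) and chr9:70207270-70207349 (plus).
Acta2: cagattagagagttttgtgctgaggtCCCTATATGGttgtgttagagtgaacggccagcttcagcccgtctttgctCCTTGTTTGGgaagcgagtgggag
Myl9: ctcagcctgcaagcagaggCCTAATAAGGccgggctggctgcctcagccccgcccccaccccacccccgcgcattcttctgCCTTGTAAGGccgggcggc
Myo1e: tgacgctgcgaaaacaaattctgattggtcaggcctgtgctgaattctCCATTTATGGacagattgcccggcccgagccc
Both Acta2 matches and the second of Myl9 carry 1 core mismatch, at 84, 34 and 99 bases before the start. The first match of Myl9, 161 bases before the start, and that of Myo1e, 32 bases before it, are strict. Myl6 and Myh13 held the other strict matches among members that fell, and Myl12a and Myh6 looser ones. Among the smooth muscle contractile genes with a promoter, Acta2 held only the looser motif, and Cald1, Cnn1, Mylk, Tpm1 and Tpm2 held neither. The match is a description of these letters, and binding was not measured. The motif was chosen with the falls already known, so these counts do not test its part in them. Of the factor and its coactivators, named here because they act on this motif, Srf (log2 -0.57 ± 0.12, adjusted p = 0.0013), Mkl1 (-0.59 ± 0.06, adjusted p = 2.85e-06) and Mkl2 (-0.80 ± 0.10, adjusted p = 1.13e-05) fell at 100 ng/mL in edgeR. Myocd, the smooth muscle coactivator, was at 0.295 CPM without VEGF-C and 0.235 CPM with 100 ng/mL (adjusted p = 0.443). What part these factors had in the fall of the members was not tested.

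The regulatory light chains of non-muscle and smooth muscle myosin fell together, and Myl9 fell furthest. Myl9 (ENSMUSG00000067818, chr2:156775420-156781658) encodes the regulatory light chain typical of smooth muscle. It measured 54.3, 43.5, 54.8, 77.6 and 49.7 CPM in unstimulated cells, 36.2, 44.8, 41.6, 31.6 and 43.1 CPM at 10 ng/mL, and 8.28, 13.4, 6.85, 8.54 and 8.34 CPM at 100 ng/mL. The 100 ng/mL libraries did not overlap with either group, and the log2 fold change was -2.62 ± 0.19 (adjusted p = 8.07e-08 in edgeR), a 6.16-fold fall. Myl12a, a regulatory light chain of broad expression, measured 285.3, 276.1, 263.6, 313.3 and 277.6 CPM in unstimulated, 283.8, 259.8, 262.5, 241.3 and 298.1 CPM with 10 ng/mL and 182.1, 219.8, 137.7, 182 and 156.3 CPM with 100 ng/mL (log2 -0.69 ± 0.10, adjusted p = 7.81e-05 in edgeR). Myl12b, its neighbour on chromosome 17, measured 154, 146.9, 142.4, 152.7 and 130.2 CPM, then 154.1, 144.5, 141.3, 119.7 and 154.5 CPM, then 91.8, 97.5, 83.1, 97.1 and 88.1 CPM in the same order (log2 -0.67 ± 0.07, adjusted p = 4.20e-06 in edgeR). The unstimulated and 100 ng/mL libraries did not overlap for either gene. The exons of both overlap those of another annotated gene (ENSMUSG00000117098), which carries the symbol Myl12b as well and is not used here. Myl12a and Myl12b share 5.65% and 7.07% of their 50-base stretches, and their ratio varied by 7.6% over the 15 libraries (coefficient of variation), so their separate values are uncertain.

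The summed RPKM of these 3 regulatory light chains was 119.1 ± 9.55 (SD, n = 5) in unstimulated, 105.8 ± 8.92 in 10 ng/mL and 60.8 ± 7.80 in 100 ng/mL libraries. Myl9 supplied 21.6% ± 3.08 of that sum in unstimulated cells (17.8 to 26.3%), 16.8% ± 1.61 at 10 ng/mL (14.8 to 18.9%) and 6.65% ± 1.02 at 100 ng/mL (6.04 to 8.40%). Its share in the 100 ng/mL libraries lay below all others, and that of Myl12a went from 40.0% ± 1.59 to 47.0% ± 2.33, values given without a test. Among the remaining light chains, the essential light chain gene Myl6 fell from 8.15 ± 1.46 to 5.53 ± 0.983 CPM (log2 -0.56 ± 0.14, adjusted p = 0.00432 in edgeR), and Myl6b from 1.91 ± 0.491 to 1.11 ± 0.264 CPM (-0.79 ± 0.21, adjusted p = 0.00642). Myl10 fell from 4.71 ± 0.301 to 3.12 ± 0.352 CPM (-0.59 ± 0.09, adjusted p = 6.98e-05). Myl4, an essential light chain of atrial muscle, measured 3.57 ± 0.126 and 3.22 ± 0.431 CPM (adjusted p = 0.224). Myl10 stood at 3.35% of Myl12b CPM with a coefficient of variation of 5.9%, although they share no 50-base stretch, and whether reads of one gene were counted for another was not tested. Myl6, Actb and Actg1 have pseudogene copies in the genome, and how reads that match several places were counted is unstated in the sources used here, so their levels are uncertain.

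Among the non-muscle class II heavy chains, motors that these light chains bind, Myh9 fell and Myh10 rose. Myh9 (ENSMUSG00000022443, chr15:77760587-77842175), the heavy chain of non-muscle myosin IIA, stood at 75.2 ± 3.18 RPKM (SD, n = 5) in unstimulated cells, the highest of the class II heavy chains. It measured 1860, 1732, 1894, 1850 and 1711 CPM in unstimulated cells, 1748, 1979, 1879, 1670 and 1829 CPM at 10 ng/mL, and 1496, 1501, 995, 1350 and 1196 CPM at 100 ng/mL. The 100 ng/mL libraries lay below all others, and the log2 fold change was -0.47 ± 0.10 (adjusted p = 0.00133 in edgeR). Myh10 (ENSMUSG00000020900, chr11:68691559-68816632), the heavy chain of non-muscle myosin IIB, rose instead. Its values were 232.1, 229.7, 233.3, 249.6 and 265.3 CPM in unstimulated, 214.7, 228.9, 230.4, 278.4 and 217 CPM with 10 ng/mL and 343.5, 379.4, 249.6, 339.4 and 318.4 CPM with 100 ng/mL. Library C of the 100 ng/mL group overlapped with the unstimulated range and the other 4 lay above it (log2 0.43 ± 0.10, adjusted p = 0.00266 in edgeR). Myh14, the IIC heavy chain, measured 14.2 ± 0.943 CPM without VEGF-C and 12.7 ± 2.05 CPM with 100 ng/mL and did not pass the test (adjusted p = 0.181).

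Among class II heavy chains (Myh9, Myh10, Myh11 and Myh14), the Myh10 share of summed RPKM was 13.5% ± 1.12 in unstimulated cells (12.53 to 15.4%), 13.1% ± 1.82 at 10 ng/mL (11.9 to 16.3%) and 22.6% ± 0.942 at 100 ng/mL (21.1 to 23.7%). The Myh9 share moved from 81.7% ± 0.880 to 73.1% ± 0.804. Neither share overlapped between unstimulated and 100 ng/mL libraries, library B included. The pool itself went from 92.0 ± 3.30 RPKM in unstimulated to 72.4 ± 11.4 RPKM in 100 ng/mL libraries.

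Myh11, the smooth muscle heavy chain, measured 42.6, 40.4, 46.0, 40.4 and 35.4 CPM in unstimulated cells, 38.98, 45.7, 41.5, 35.3 and 40.7 CPM at 10 ng/mL and 34.3, 31.6, 22.3, 28.4 and 26.7 CPM at 100 ng/mL. It fell by 0.51 on the log2 scale (SE 0.11, adjusted p = 0.0011 in edgeR), without overlap, and so by much less than Tagln or Acta2. Its ratio to Myh9 was 2.23% with a coefficient of variation of 4.4% over the 15 libraries, while Myh11 alone varied by 19.1%. The 2 genes share 0.34% of the 50-base stretches of Myh11, and whether their reads were separated in counting was not tested.

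**Figure D3:**
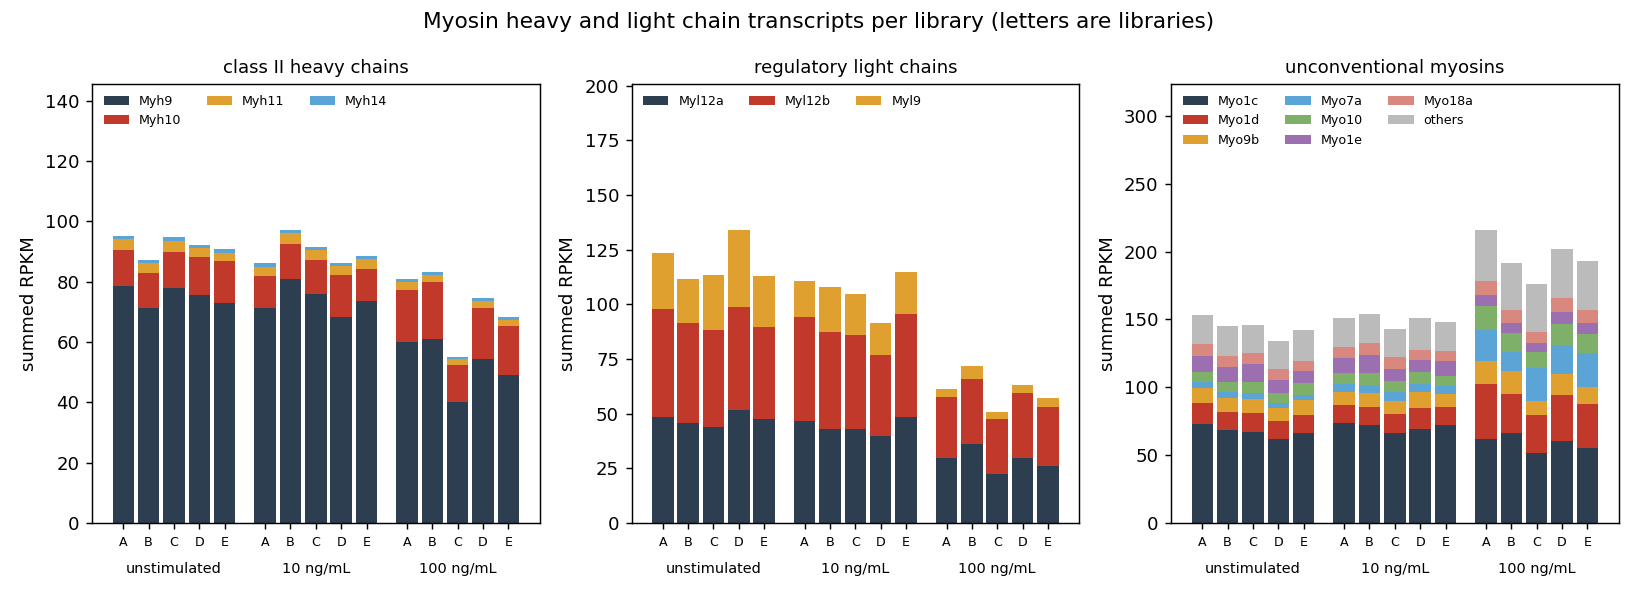
Summed RPKM of class II heavy chains, regulatory light chains and unconventional myosins in every library (stacked bars, letters are libraries). Orange Myl9 segments shrink at 100 ng/mL. The red Myh10 segments average 16.3 RPKM there against 12.43 RPKM in unstimulated libraries, with the lowest (12.41 RPKM) inside the unstimulated range. The unconventional pool is highest in the 100 ng/mL libraries.

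The sarcomeric heavy chains, which build the thick filaments of skeletal and heart muscle, were rare. The highest were Myh13, an extraocular muscle chain, at 0.423 RPKM and Myh6, the atrial α chain, at 0.318 RPKM in unstimulated cells. Myh13 measured 5.39, 4.30, 5.43, 4.54 and 4.74 CPM in unstimulated, 5.24, 4.90, 5.25, 4.42 and 5.38 CPM with 10 ng/mL and 4.36, 4.24, 2.98, 4.20 and 3.13 CPM with 100 ng/mL (log2 -0.37 ± 0.12, adjusted p = 0.0192 in edgeR). Myh6 measured 3.49, 3.61, 4.43, 3.86 and 3.44 CPM, 4.51, 4.29, 4.43, 3.89 and 4.46 CPM, and 3.67, 3.24, 2.46, 3.10 and 2.82 CPM in the same order (log2 -0.30 ± 0.11, adjusted p = 0.0328 in edgeR). The unstimulated and 100 ng/mL ranges overlapped for both.

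Myh7b also fell (log2 -0.30 ± 0.08, adjusted p = 0.00901 in edgeR), and the calls for Myh1 (adjusted p = 0.0294), Myh2 (0.0478) and Myh7 (0.0239), each at -0.35 to -0.40 on the log2 scale, were among the least stable. Over the alternatives their adjusted p reached 0.0979, 0.156 and 0.207, and that of Myh6 reached 0.092. Leaving out unstimulated A or 100 ng/mL C ended the calls of Myh1, Myh2 and Myh7. Leaving out unstimulated C or 100 ng/mL C, D or E ended those of Myh1, Myh2 and Myh6, as unstimulated D did for Myh6, and unstimulated B or E or 10 ng/mL A, B, C or E for Myh2. The Myh13 call was lost without 100 ng/mL E (adjusted p = 0.0544). Myh8 did not pass (adjusted p = 0.347). Ratios to more abundant relatives were steady, with a coefficient of variation of 4.9% for Myh2 to Myh1, 6% for Myh7 to Myh9 and 7.4% for Myh13 to Myh9. Myh1 shares 18.69% of its 50-base stretches with Myh2 and Myh6 shares 20.16% with Myh7, while Myh7 and Myh13 share none with Myh9. Whether these low counts are reads of relatives was not tested. Exons of Myh1, Myh2, Myh6 and Myh7 overlap antisense genes and those of Myh7b overlap Trpc4ap.

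The unconventional myosins stood on the other side of the comparison. As a pool they summed to 144.2 ± 6.86 RPKM (SD, n = 5) in unstimulated, 149.4 ± 4.13 in 10 ng/mL and 195.7 ± 14.6 RPKM in 100 ng/mL libraries, with the lowest 100 ng/mL library (176 RPKM) above the highest unstimulated one (152.9 RPKM). Of the 13 that rose, the largest change was that of Myo7a (ENSMUSG00000030761, chr7:98051060-98119524), a MyTH4-FERM myosin known from the stereocilia of hair cells and the retinal pigment epithelium. It measured 68.5, 66.6, 70.8, 56.6 and 58.4 CPM in unstimulated cells, 97.6, 98.7, 100.54, 99.2 and 88.3 CPM at 10 ng/mL and 374.5, 226.5, 394.8, 351.5 and 401.5 CPM at 100 ng/mL. None of the 3 ranges overlapped, and library B was the lowest at 100 ng/mL. The rise at 100 ng/mL was 5.45-fold (log2 2.45 ± 0.13, adjusted p = 1.14e-08 in edgeR), and 1.85 ± 0.13 on the log2 scale against 10 ng/mL (adjusted p = 7.31e-08). Its relative Myo7b, a motor of intestinal brush border microvilli, was low throughout and rose from 0.362 ± 0.0720 to 1.23 ± 0.254 CPM (log2 1.75 ± 0.18, adjusted p = 2.76e-06 in edgeR).

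The class I myosins, single-headed motors that tether membranes to actin, did not move as a block. Myo1d (ENSMUSG00000035441, chr11:80482126-80780025) measured 185.8, 164.8, 171.1, 165.3 and 154.9 CPM in unstimulated, 158.3, 159.1, 172.9, 190.5 and 164.9 CPM with 10 ng/mL and 509.3, 353.6, 352.1, 420.6 and 396.6 CPM with 100 ng/mL. It rose 2.41-fold at 100 ng/mL (log2 1.27 ± 0.09, adjusted p = 1.22e-07 in edgeR). Every 100 ng/mL library lay above every other library, and the 10 ng/mL range overlapped with the unstimulated one. Myo1a, a brush border myosin, rose from 0.7756 ± 0.1102 to 1.47 ± 0.142 CPM (log2 0.91 ± 0.15, adjusted p = 0.000233 in edgeR).

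Myo1c, the most abundant unconventional myosin, measured 882, 848.4, 826.4, 770.1 and 792.4 CPM in unstimulated, 925.1, 902.4, 834.1, 864.6 and 916 CPM with 10 ng/mL and 783.1, 832.8, 648.4, 761.6 and 687.6 CPM with 100 ng/mL. It did not pass against unstimulated cells (log2 -0.15 ± 0.07, adjusted p = 0.0912 in edgeR), although it did without 100 ng/mL library B (adjusted p = 0.029) and in 5 of the other alternatives, and it was lower at 100 than at 10 ng/mL (-0.26 ± 0.07, adjusted p = 0.00731). Its share of the unconventional pool went from 46.5% ± 0.819 in unstimulated to 30.1% ± 2.501 in 100 ng/mL libraries, while Myo1d went from 9.71% ± 0.445 to 16.7% ± 1.46 and Myo7a from 2.79% ± 0.170 to 10.99% ± 2.51.

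The 2 unconventional myosins that fell are the long-tailed class I myosins. Myo1f, known from leukocytes, measured 2.99, 2.39, 4.497, 3.22 and 2.28 CPM in unstimulated, 2.17, 3.96, 2.46, 2.04 and 1.93 CPM with 10 ng/mL and 1.22, 1.40, 0.819, 1.02 and 1.62 CPM with 100 ng/mL (log2 -1.33 ± 0.25, adjusted p = 5.37e-04 in edgeR). The sum of 10 leukocyte markers was 34.95 to 66.7 CPM in unstimulated and 22.6 to 32.1 CPM in 100 ng/mL libraries. Of the 8 tested, 6 fell and 1 rose, beside 21.5% of all genes lower and 21.4% higher. The part of leukocytes in the Myo1f result was not tested. Myo1e, a myosin of clathrin-mediated endocytosis, fell from 101.7 ± 14.4 to 74.8 ± 4.95 CPM (log2 -0.44 ± 0.11, adjusted p = 0.00386 in edgeR), without overlap.

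**Figure D4:**
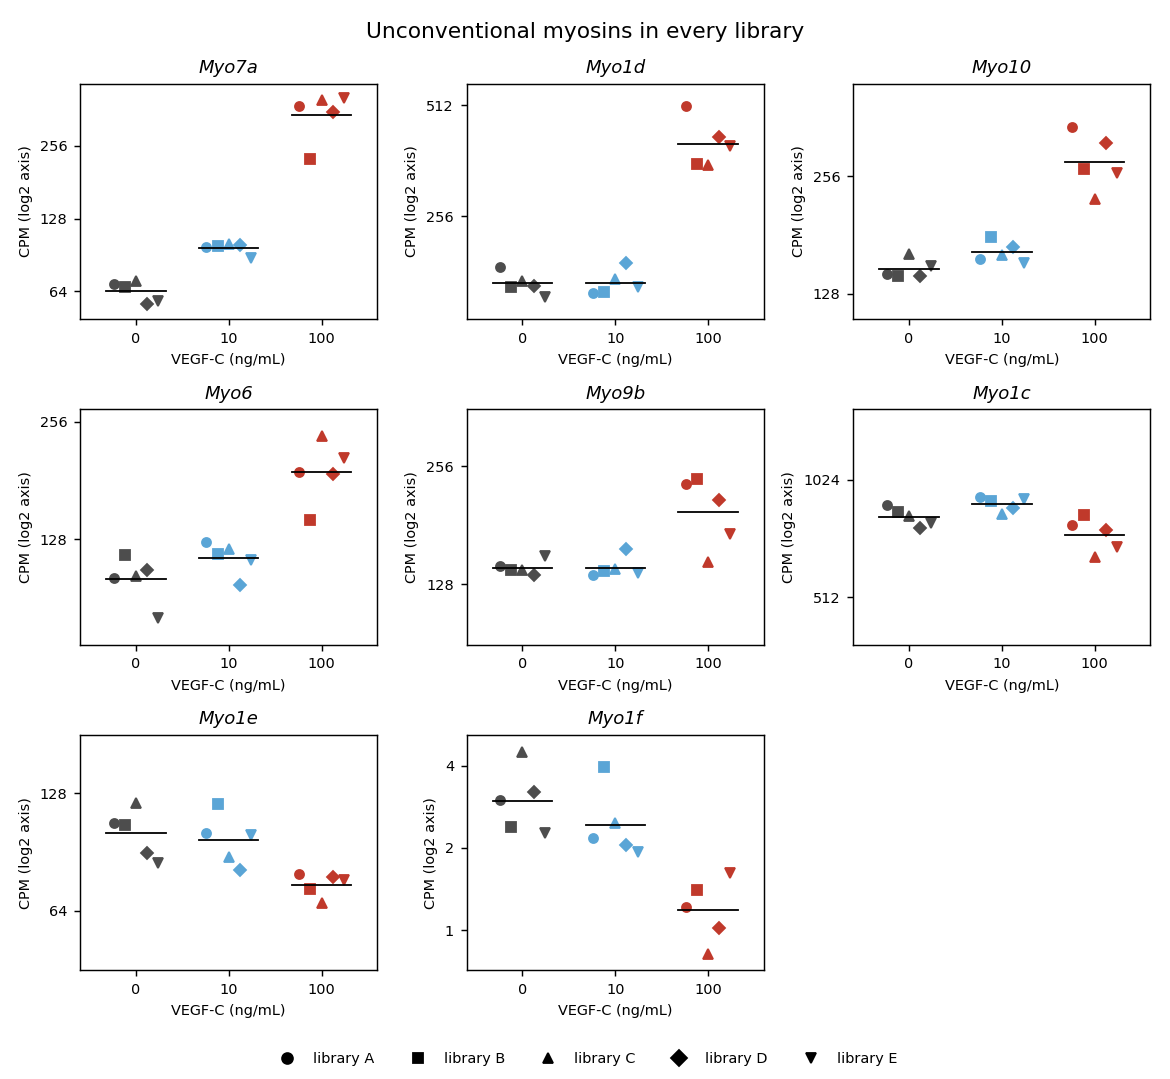
CPM of 8 unconventional myosins in every library (vertical log2 axes, 1 symbol per library letter, black lines at the geometric mean) against VEGF-C dose. Myo7a, Myo1d, Myo10 and Myo6 lie higher in every 100 ng/mL library than in any unstimulated one, and Myo1e and Myo1f lie lower.

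Transport and filopodial myosins rose by smaller factors than Myo7a and Myo1d. Myo10, the motor of filopodial tips, went from 148.2 ± 8.44 to 280.8 ± 46.2 CPM (log2 0.92 ± 0.09, adjusted p = 2.13e-06 in edgeR), and Myo6, which moves toward the minus end of actin filaments and serves in endocytosis, from 101.8 ± 13.2 to 192.6 ± 33.5 CPM (0.92 ± 0.12, adjusted p = 2.41e-05). The vesicle motors Myo5a (101.9 ± 12.8 to 149.7 ± 23.4 CPM, adjusted p = 0.00227) and Myo5c (0.957 ± 0.251 to 1.85 ± 0.446 CPM, adjusted p = 0.00194) rose by 0.56 and 0.94 on the log2 scale. The class IX myosins, which carry a RhoGAP domain, gave 141.2 ± 6.03 and 199.4 ± 39.5 CPM for Myo9b (log2 0.50 ± 0.11, adjusted p = 0.0018) and 39.8 ± 4.37 and 47.5 ± 4.25 CPM for Myo9a (0.26 ± 0.09, adjusted p = 0.0272). The call for Myo9a was lost when any 1 of unstimulated A, D or E or 100 ng/mL A or C was left out, and in 3 of the other alternatives (adjusted p up to 0.0747). Myo18a (220.8 ± 12.5 to 276 ± 25.4 CPM, adjusted p = 0.0021) and the mitochondrial motor Myo19 (27.6 ± 2.30 to 37.6 ± 7.54 CPM, adjusted p = 0.00715) rose by 0.32 and 0.44 on the log2 scale. Exons of Myo9b overlap Haus8, and those of Myo19 overlap Pigw and Znhit3. The 7 unconventional myosins without a call were Myo1c, Myo1g, Myo1h, Myo3a, Myo3b, Myo5b and Myo18b, of which all but Myo1c had a mean of at most 4.28 CPM in each group.

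At 10 ng/mL no member changed against unstimulated cells by the edgeR test, in which 0% of all genes were called. At an unadjusted p below 0.05 there were 4 members and 844 of 17650 genes. The DESeq2 Wald test called 1 member (Myo7a) and 10 genes, and limma-voom called none of either. With surrogate variables in the edgeR model, 0 members and 28 genes were called, and 9 members and 2460 genes had an unadjusted p below 0.05. In the main edgeR fit the smallest adjusted p among members was 0.969. Groups did not overlap for 3 members, beside 1.31% of all genes. These were Myo7a, Myo7b and Tagln. Myo7a measured 64.2 ± 6.30 CPM without VEGF-C and 96.9 ± 4.90 CPM with 10 ng/mL (log2 0.59 ± 0.12, unadjusted p = 0.000269). Without 100 ng/mL library B, which enters the shared estimate of spread, its adjusted p was 0.0107. Tagln stood at 400.2 ± 120 and 230.1 ± 27.9 CPM (log2 -0.80 ± 0.41, adjusted p = 0.969), with unstimulated D at 608.3 CPM, and Tpm2, Myl9 and Acta2 had log2 differences of -0.48, -0.50 and -0.53 that did not pass either. The medians were -0.40 for the contractile genes and 0.04 for the unconventional myosins, beside -0.0027 for all genes tested.

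Other genes of the contractile and motor machinery were counted from lists. These lists were chosen with earlier results of these data known, so their shares are descriptions and not tests. In a list of 25 further smooth muscle and actin cytoskeleton genes, 18 fell and 3 rose at 100 ng/mL, with a median log2 fold change of -0.61, shares of 72% and 12% beside 21.5% of all genes lower and 21.4% higher. Those with the smallest p were Csrp2 (-1.65 ± 0.13), a LIM protein of smooth muscle, the striated muscle actins Acta1 (-1.96 ± 0.16) and Actc1 (-2.19 ± 0.18), and Lmod1 (-4.25 ± 0.40), the smooth muscle leiomodin, with adjusted p of 1.39e-07, 2.64e-07, 2.69e-07 and 9.40e-07 in edgeR. Lmod1 went from 15.1 to 0.786 CPM. Srf, Mkl1, Mkl2 and Myocd, given above with the promoters, also belong to this list. Of 29 tested genes that control light chain phosphorylation, 9 rose and 7 fell with a median of 0.0049. The shares of 31% higher and 24.1% lower lie near those of all genes, and nothing about the list is read from them. Among its called genes with the smallest p, Ppp1r12b (-1.09 ± 0.10), Mylk3 (-2.03 ± 0.23) and Ppp1r14a (-2.87 ± 0.33), which encode a myosin phosphatase targeting subunit, a cardiac light chain kinase and a phosphatase inhibitor, fell (adjusted p = 7.37e-07, 6.38e-06 and 6.74e-06), and Rhoa (0.32 ± 0.04, adjusted p = 4.18e-05), the GTPase upstream of the kinases Rock1 and Rock2, rose. Of 19 tested light chains, chaperones and cargo partners of unconventional and non-muscle myosins, 8 rose and 3 fell (42.1% and 15.8%), with a median of 0.01. The Myo6 partner Tom1l2 (0.44 ± 0.05) and the myosin chaperone Unc45a (0.40 ± 0.08) rose with adjusted p of 9.39e-06 and 0.000846 in edgeR. S100a4, which binds the Myh9 heavy chain, fell (-1.72 ± 0.32, adjusted p = 5.70e-04). No gene of the 3 lists was called at 10 ng/mL in edgeR.

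Markers of other cell types moved in the same libraries as the contractile genes. Of 10 mural and smooth muscle markers 6 fell and none rose at 100 ng/mL, beside 21.5% of all genes lower. Of these 6, Des, Lmod1 and Synpo2 also belong to the list of further smooth muscle genes and are counted in both. The sum of the 10 was 276 to 433.7 CPM in unstimulated, 220.5 to 342.2 CPM with 10 ng/mL and 134.1 to 392.1 CPM with 100 ng/mL, mostly Mcam, which endothelial cells also express. The mural markers Rgs5 and Notch3 did not pass (adjusted p = 0.395 and 0.333), and Pdgfrb fell from 62.95 to 17.9 CPM (adjusted p = 0.00496). Of 9 tested fibroblast markers 8 fell, and the sum of all 10 was 2143 to 3823 CPM in unstimulated, 2201 to 3817 CPM with 10 ng/mL and 881.6 to 1230 CPM with 100 ng/mL. Library B had the highest fibroblast sum of the 100 ng/mL group, the lowest lymphatic endothelial sum (8932 CPM, against 10720 to 11530 CPM in the other 4), the highest Tagln, Acta2, Cnn1, Actg2, Tpm1, Tpm2 and Myl9, and the lowest Myo7a and Myo6. Not every member ran this way. Among those that rose, Myh10 was highest in library B (379.4 CPM), and Myo1d was lowest in library C (352.1 CPM). The mural and smooth muscle sum of library B (330.6 CPM) was below that of library A (392.1 CPM), which had the lowest Acta2 of the group at 7.85 CPM. Lum, a fibroblast marker, was near 0 in all groups, at 0.0902 CPM in unstimulated cells. Of 9 tested lymphatic endothelial markers 6 rose, 1 fell and 2 were not called at 100 ng/mL, beside 21.4% of all genes higher and 21.5% lower. Of 7 tested epithelial markers 4 fell and 1 rose. The sum of all 8 was 84.64 to 136.9 CPM in unstimulated and 31.84 to 61.14 CPM in 100 ng/mL libraries. Of the 10 striated muscle markers 5 were below the filter, and 3 of the 5 tested fell. The part of these cell types in the fall of the contractile genes was not tested. At 10 ng/mL, where the fibroblast sums overlapped with the unstimulated ones, none of these markers was called.

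**Figure D5:**
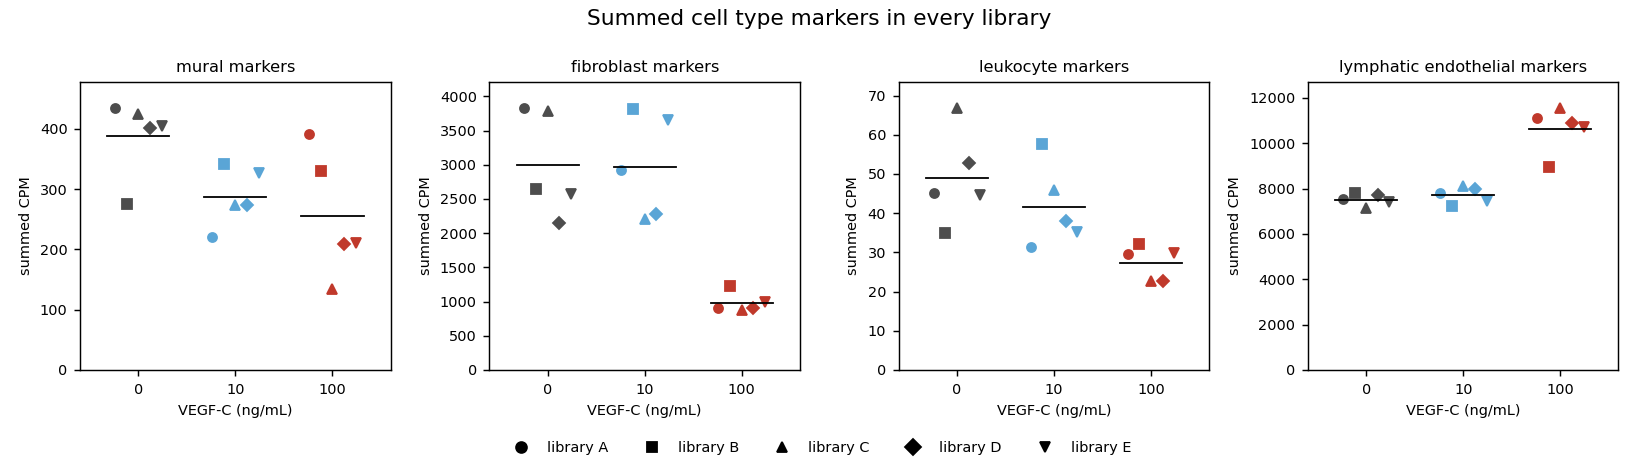
Summed CPM of 10 mural, 10 fibroblast, 10 leukocyte and 10 lymphatic endothelial markers in every library (1 symbol per library letter, black lines at the mean) against VEGF-C dose. Fibroblast sums are 881.6 to 1230 CPM at 100 ng/mL and at least 2143 CPM elsewhere, and lymphatic endothelial sums are highest at 100 ng/mL.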

How the data were processed

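RNA was measured by stranded poly-A RNA sequencing (Illumina TruSeq), per the labels' protocols. The authors deposited estimated counts (64.3% not whole) and RPKM values for 45706 genes in 15 libraries. FastQC, Bowtie2, limma, GRCm38 and mm10 are named per the submitters' processing notes. The counter, its strand setting and how it counted reads matching more than one gene are not stated in the sources used here, which bears on paralogs and overlapping genes. Deposited RPKM used a library total 1.86 to 1.92 times the summed counts. Counts were rounded, filtered with filterByExpr (17650 genes kept), scaled by TMM and fitted with edgeR 4.0.16 (R 4.3.3), group as the only term, all libraries in 1 fit, adjusted over all genes at 0.05. The fit was also run on simulated counts with changes in a small set of genes and the same spread for all. These settings are simpler than the data, and nothing about the results is read from that run. Alternatives (27 settings) included DESeq2 1.42.0, limma 3.58.1 and sva 3.50.0 (3 variables). Replicates differed by more than counting noise (chi-square per degree of freedom at least 6.01). Groups came from sample titles. Positions are GENCODE M21, promoters RefSeq GRCm38.p6. Values in every library are given for members with a mean of at least 1 CPM that were called with a log2 fold change of at least 1 in size, and for the 2 members of each class with the highest RPKM. For each list, the 4 called genes with the smallest p are named. Some genes these rules choose are not reported here, though counts, medians and pools include them. Members and lists were chosen with earlier results of these data known.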

Additional observations from a re-analysis of the deposited data

Results flagged for a closer look

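Single libraries far from the rest of their group of 5 were found for 11 of 54 combinations of gene and group. Chance gives about 1 in 20 for independent, normally distributed values. The genes share their libraries, so the 11 are not separate events. Library B at 100 ng/mL lay high for 5 genes, with Tagln at 61.4 CPM (next highest 15.04), Acta2 at 47.9 CPM (17.1), Tpm2 at 32.1 CPM (17.2), Myl9 at 13.4 CPM (8.54) and Cnn1 at 5.44 CPM (2.99). The same library was low for Myo7a, at 226.5 CPM against 351.5 CPM in the next. Among unstimulated libraries, D was high for Tagln at 608.3 CPM (next 382.6) and B was low for Tpm2 at 68.5 CPM (next 89.9). At 10 ng/mL, library D was high for Myh10 at 278.4 CPM (next 230.4), B was high for Myo1f at 3.96 CPM (next 2.46), and E was low for Myo7a at 88.3 CPM (next 97.6).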

How the results depend on the processing

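Counts of members called ranged from 31 to 41 for 100 ng/mL against unstimulated and from 32 to 41 for 100 against 10 ng/mL over 27 alternatives. For 10 ng/mL against unstimulated, 1 member (Myo7a) was called by the DESeq2 Wald test, and leaving out 1 library gave 0 to 1, with 1 only without 100 ng/mL B. The median log2 fold change of unconventional myosins was 0.306 without a filter, where Myo15, Myo15b and Myo16 enter the median. It was 0.109 on log2(RPKM + 1) and 0.323 on log2(RPKM + 0.1). The median of contractile genes was -1.476 on log2(RPKM + 1). A pseudocount shrinks changes of low genes on the RPKM scales. With a replicate block, 35 members were called at 100 ng/mL against unstimulated, against 37 without it. With each gene's group mean subtracted from its log2 CPM, same-letter libraries of different groups correlated at -0.342 to 0.132. In each comparison none of 5 correlated best with its own letter, so the letters were not used to pair libraries. The labels do not say whether a letter marks a shared culture or day. Differences of uncalled Myo1h ran from -0.128 to 0.071 and of Myo3a from -0.086 to 0.094 on leaving out 1 library. Over single members and settings at 100 ng/mL against unstimulated, 1226 values kept their direction and side of the threshold, 51 lost a call, 12 gained one and 4 reversed. Low members such as Myo7b, Myo3a and Myo18b rest on few counts.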
